A study of Mus musculus with 8 samples.

Results

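Genes for protein folding in the endoplasmic reticulum (ER) and for the unfolded protein response were followed in the mouse fibroblast line NIH3T3, derived from embryos and kept for 1 day in Mic-628 or in vehicle. The 40 genes were picked by symbol, with earlier results of these data known, and each had a single row among the 78298 transcript rows of the deposited tables. Of these 40, 39 had enough counts to be tested, among 17128 tested rows in all. Both groups were wild type, as labelled, and had 4 poly(A) RNA libraries each. By the labels there were 4 batches, each made up of 1 Mic-628 and 1 vehicle library. Nothing in the labels tells whether replicates were independent cultures, so a p-value here reflects library-to-library spread that could be technical. The whole study rests on 1 cell line.

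Between 18.1 M and 23.2 M counts per library (M, mega) fell on listed transcripts. Per1, a repressor of the circadian clock and the gene that the series title names as the target, averaged 124.5 ± 5.76 CPM (counts scaled to library size) with Mic-628 and 21.5 ± 1.21 CPM with vehicle (SD, n = 4 each). Of 10 fibroblast markers, Vim (vimentin), Fn1 (fibronectin) and Col1a2 were abundant and Lum was the lowest, at 0.463 FPKM over all libraries, where FPKM is the fragment count scaled to exon length and library size. Adgre1, a macrophage marker, was at 0 counts in all libraries, and the epithelial marker Epcam had at most 0.5 counts. Over 5 macrophage and blood markers the sum was 16.3 to 17.8 CPM with Mic-628 and 14.6 to 16.3 CPM with vehicle. Cd68 and Csf1r made up most of it. None of the 5 was called, which means an adjusted p under 0.05 in edgeR's test over all tested rows. The 5 epithelial markers summed to 1.03 to 1.55 CPM with Mic-628 and 0.643 to 1.13 CPM with vehicle, nearly all from Krt8, which was not called. Among the 10 fibroblast markers 5 fell, that is, were called lower, against 2.25% of all tested rows. The folds of Mic-628 over vehicle were 0.825 for Fn1, 0.861 for Vim, 0.91 for Col1a2, 0.674 for Col3a1 and 0.755 for Dcn. The other 5 were not called. Their folds of Mic-628 over vehicle were 0.997 (Col1a1), 1.022 (Pdgfra), 1.007 (Pdgfrb), 1.002 (Thy1) and 0.704 (Lum). Fn1 averaged 11730 CPM with Mic-628 and 14210 CPM with vehicle, and Vim 4306 and 5001 CPM in the same order. The summed level of the fibroblast markers was 19400 to 19920 CPM with Mic-628 and 21880 to 23590 CPM with vehicle. The part of this shift in the values below was not tested. In RNA from whole cultures, fewer cells of a kind and less RNA per cell cannot be told apart.

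Proteins that enter the ER are held by chaperones of the Hsp70 and Hsp90 families, receive sugar chains and disulfide bonds, and are released once folded. When unfolded protein builds up, the sensors IRE1, PERK and ATF6 in the ER membrane switch on a transcriptional programme, the unfolded protein response, which raises chaperone genes and the machinery for degrading misfolded protein. ATF6 and XBP1 act largely through the ER stress response element (ERSE), in which a CCAAT box and a CCACG box are set apart by a fixed spacer. Fibroblasts secrete much collagen and fibronectin through this machinery.

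The response element is the known route from the sensors to the chaperone genes, so its letters were searched in promoter windows from 250 bases before to 50 bases after a start site, taken from RefSeq (build GRCm38.p6). Windows were found for 33 of the 40 members. The ERSE letters were CCAAT and CCACG with 9 bases of any kind between them. They occurred on either strand in 10 of these 33 genes (30.3%), against 37 of 27025 genes with a window (0.137%), members included. As the element was known beforehand as the route to chaperone genes, an excess among the members is no independent result. The other form, ERSE-II, is ATTGG, 1 base of any kind and CCACG, and it occurred in Dnajb11 and Herpud1 (6.06% of the 33), against 0.0444% of all genes. The stretches below are printed 5′ to 3′ on the gene's strand, with the element in capitals. Elements on the opposite strand begin with CGTGG.
Hspa5: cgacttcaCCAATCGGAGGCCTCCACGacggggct
Hsp90b1, distal element: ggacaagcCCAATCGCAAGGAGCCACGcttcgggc
Hsp90b1, proximal element: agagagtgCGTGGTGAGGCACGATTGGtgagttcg
Calr: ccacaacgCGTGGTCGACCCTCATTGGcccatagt
Canx: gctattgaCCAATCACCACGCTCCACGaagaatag
Pdia6: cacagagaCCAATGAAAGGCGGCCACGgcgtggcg
Dnajc3: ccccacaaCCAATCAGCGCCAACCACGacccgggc
Creld2: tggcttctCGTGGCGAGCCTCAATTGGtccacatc
Ero1b: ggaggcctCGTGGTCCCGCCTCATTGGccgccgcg
Syvn1: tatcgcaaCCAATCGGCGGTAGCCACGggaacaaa
Derl3: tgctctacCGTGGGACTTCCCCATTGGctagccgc
Herpud1, ERSE-II: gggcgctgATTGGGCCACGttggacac
Dnajb11, ERSE-II: cggcggcgATTGGCCCACGcctggctg

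Counted from the start site, the element covered bases -65 to -47 in Hspa5, -212 to -194 and -107 to -89 in Hsp90b1, -162 to -144 in Calr and -52 to -42 in Herpud1. In Dnajb11 it lay after the start, at bases 8 to 18. The whole window of Hspa5, which encodes the ER Hsp70 known as BiP, lies at chr2:34771840-34772139 on the plus strand (GRCm38.p6) and is shown because BiP is the usual readout of ER stress. Further CCAAT boxes stand upstream of its element in lower case.
Hspa5 window: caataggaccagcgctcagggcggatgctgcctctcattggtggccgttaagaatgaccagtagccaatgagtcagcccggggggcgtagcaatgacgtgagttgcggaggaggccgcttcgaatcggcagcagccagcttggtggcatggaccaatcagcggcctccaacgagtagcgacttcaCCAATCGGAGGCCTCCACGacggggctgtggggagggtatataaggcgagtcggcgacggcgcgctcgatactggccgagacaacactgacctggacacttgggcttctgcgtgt
The core of the unfolded protein response element, TGACGTGG, was in none of the 33 windows and in 0.714% of all genes. The E-box letters CACGTG, the site of CLOCK and BMAL1, were in Dnajb9, Calr, Derl3 and Selenos (12.1%), against 8.09% of all genes. These matches describe letters in a window and do not show binding.

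Per length, most members lay above the typical tested row. The median of the tested members was 52.1 FPKM, against 6.47 FPKM over all tested rows, and 36 of 39 members lay above the median of all tested rows. Calr, Hspa5 and Hsp90b1 stood at ranks 25, 30 and 49 among the 17128 rows. The oxidoreductase genes Pdia3, Pdia4 and Pdia6, at ranks 145, 166 and 193, followed with Canx at rank 196. At the lower end, Fkbp14 and Ero1b had 2.678 and 2.702 FPKM over all libraries. Derl3, a derlin gene of secretory tissues, had between 1 and 5 counts in each library and was not tested.

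**Figure D1:**
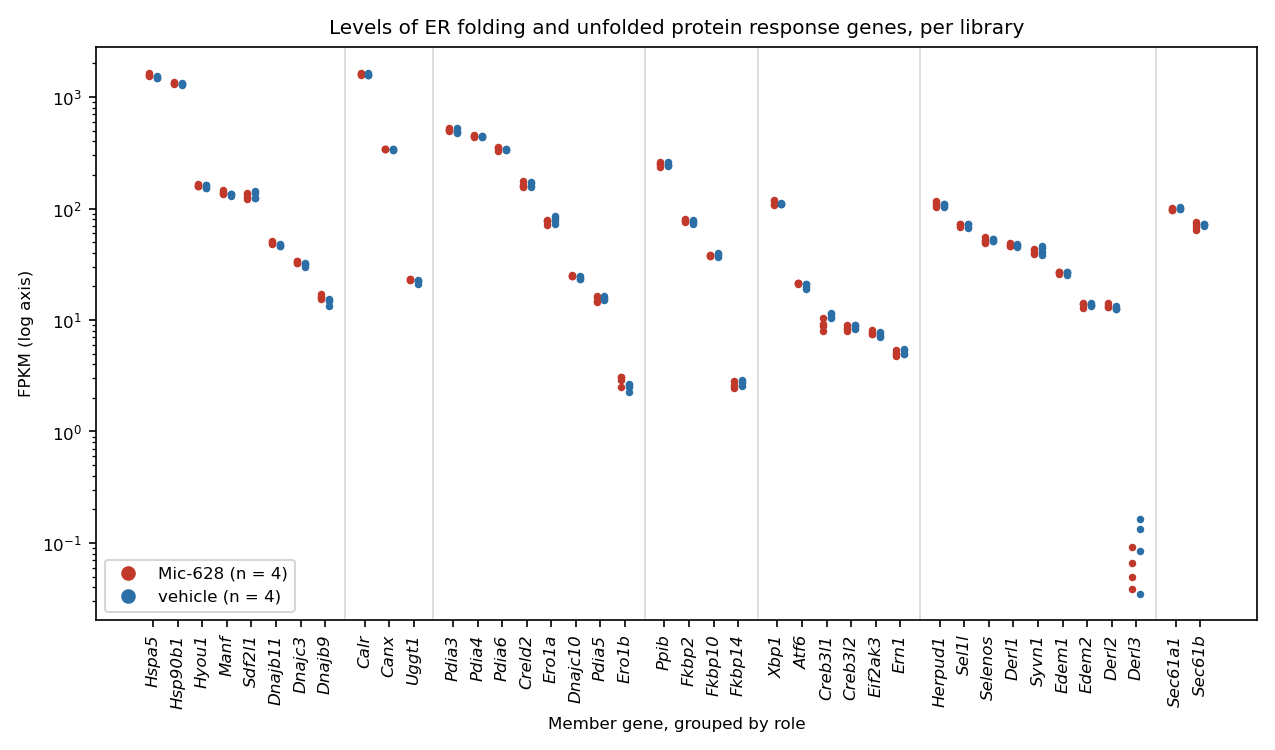
Deposited FPKM (log axis) of the 40 members in each of the 4 Mic-628 libraries (red) and 4 vehicle libraries (blue), in blocks by role. Levels span Calr, Hspa5 and Hsp90b1, with means of 1330 to 1595 FPKM, down to Derl3, with a mean of 0.083 FPKM, and the red and blue points of a gene lie close together beside this range.

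The comparison asked whether 1 day of Mic-628 altered this machinery. Throughout, a gene is called, and said to rise or fall, at an adjusted p under 0.05 in edgeR's quasi-likelihood test over all tested rows. By this rule 0 of 39 tested members were higher and 1 was lower with Mic-628. The background over all tested rows was 2.13% called higher and 2.25% called lower (4.37% in all). The member that fell was Creb3l1, which encodes an ER membrane transcription factor of the ATF6 type. At an unadjusted p under 0.05 in edgeR, 7 members (17.9%) had a positive difference, against 8.15% of all rows. A negative difference at that p was found for 1 member (2.56%), against 8.81% of all rows. Both directions together were 20.5% of the members, against 17% of all rows. DESeq2 also called only Creb3l1 among the members.

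The absence of calls came with narrow intervals. The 95% interval of the fold change lay wholly within 1.2-fold of no change, in either direction, for 37 of 39 members, and for 9670 of 17128 rows in all. These intervals are per gene and not adjusted for the number of genes. The exceptions were Creb3l1 and Ero1b. In data simulated for this comparison over 17128 genes, with 8 false calls, the test recovered 7 of 50 genes changed by 1.1-fold, 20 of 50 at 1.2-fold and 38 of 50 at 1.5-fold. The changed genes were drawn at random from all tested rows. Those rows had a median of 6.47 FPKM, against 52.1 FPKM for the tested members, so these rates are not rates for the members. The simulation changed 50 genes at each of 1.1-, 1.2-, 1.5- and 2-fold, whereas 749 rows were called in the data. The adjusted p depends on how many genes change, so the rates need not hold for the data. Within the simulation, changes of 1.1-fold mostly went uncalled. The median log2 fold change of the tested members was 0.022, against -0.0040 over all tested rows, with 25 members positive and 14 negative. The negative ones were 35.9% of the members, against 51.6% of all tested rows.

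**Figure D2:**
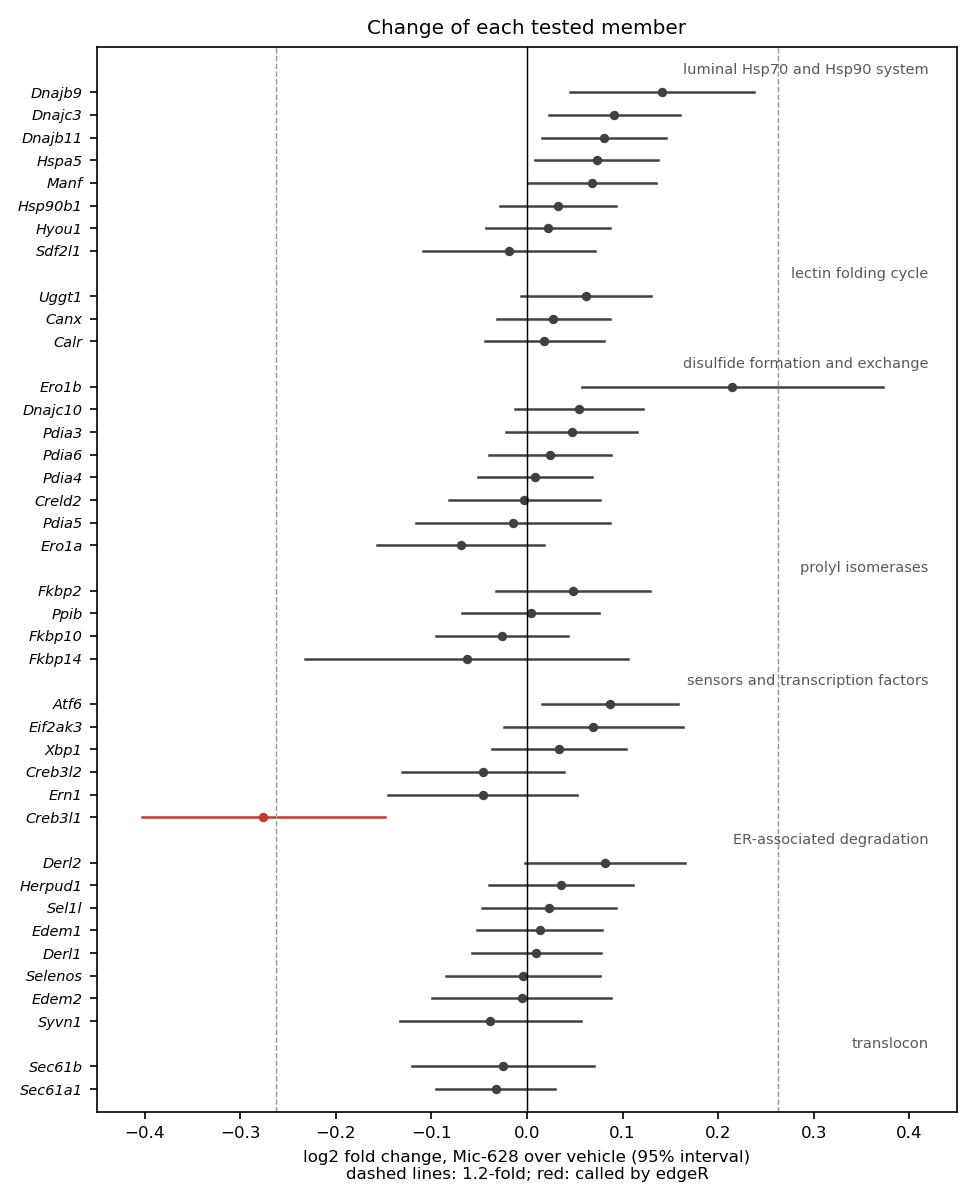
Log2 fold change of each tested member, Mic-628 over vehicle, with its 95% interval from the edgeR fit, in blocks by role; dashed lines mark 1.2-fold. The interval of Creb3l1 (red, called) runs from -0.40 to -0.15, and apart from Ero1b the other intervals stay inside the dashed lines.

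Creb3l1 (ENSMUST00000028663.5, mm39 chr2:91812673-91854847, minus strand) encodes OASIS, a factor that is cut from the ER membrane by the proteases that also release ATF6 and that is needed for type I collagen expression in mouse osteoblasts. It had 29.1, 24.5, 25.7 and 22.1 CPM in Mic-628 replicates 1 to 4, against 31.4, 29.7, 31.9 and 29.3 CPM in vehicle replicates 1 to 4. All Mic-628 libraries lay below all vehicle libraries, although Mic-628 replicate 1 came within 0.2 CPM of the lowest vehicle library. Its means were 25.3 ± 2.93 CPM with Mic-628 and 30.6 ± 1.28 CPM with vehicle (SD, n = 4 each), which gave a log2 fold change of -0.28 with an SE of 0.061 and an adjusted p of 0.00822 in edgeR. On the linear scale the ratio was 0.826, with 95% limits of 0.756 and 0.902. As all Mic-628 libraries lay below all vehicle libraries, the Mic-628 library was necessarily the lower one in 4 of 4 batches. The call was not made with the batch as a block in DESeq2 (adjusted p = 0.0543), by limma-trend on log2 FPKM (0.121 to 0.262), or without batch 2 or batch 3 (edgeR adjusted p 0.0763 and 0.0933). Creb3l2, the paralog that serves cartilage secretion in mice, had a log2 fold change of -0.05 (SE 0.041) and was not called.

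The stress sensors themselves were not called. Atf6 (mm39 chr1:170532243-170695340, minus strand) had 168.4, 161.9, 168.1 and 168.4 CPM in Mic-628 replicates 1 to 4, against 148.7, 152.8, 163.0 and 163.2 CPM in vehicle replicates 1 to 4. Each Mic-628 library was above the vehicle library of its batch, but the groups overlapped through Mic-628 replicate 2. The log2 fold change was 0.09, with an SE of 0.035 and an adjusted p of 0.180 in edgeR. Ern1, the gene of IRE1, had 37.3, 39.9, 37.3 and 35.8 CPM in Mic-628 replicates 1 to 4, against 36.6, 37.1, 40.3 and 41.4 CPM in vehicle replicates 1 to 4. Eif2ak3, the gene of PERK, had 36.6, 36.3, 39.2 and 38.0 CPM in Mic-628 replicates 1 to 4, against 34.2, 34.4, 37.7 and 36.7 CPM in vehicle replicates 1 to 4. Both overlapped between groups, with log2 fold changes of -0.05 for Ern1 (SE 0.048) and 0.07 for Eif2ak3 (SE 0.045).

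Xbp1 encodes the factor that IRE1 activates by splicing its mRNA. It had 131.9, 129.0, 141.1 and 138.9 CPM in Mic-628 replicates 1 to 4, against 134.6, 131.9, 130.9 and 131.2 CPM in vehicle replicates 1 to 4. The Mic-628 libraries spread on both sides of the vehicle libraries. The log2 fold change was 0.034, with an SE of 0.034 and an adjusted p of 0.680 in edgeR. The deposited table holds 1 value for the gene, so its spliced and unspliced forms cannot be told apart.

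**Figure D3:**
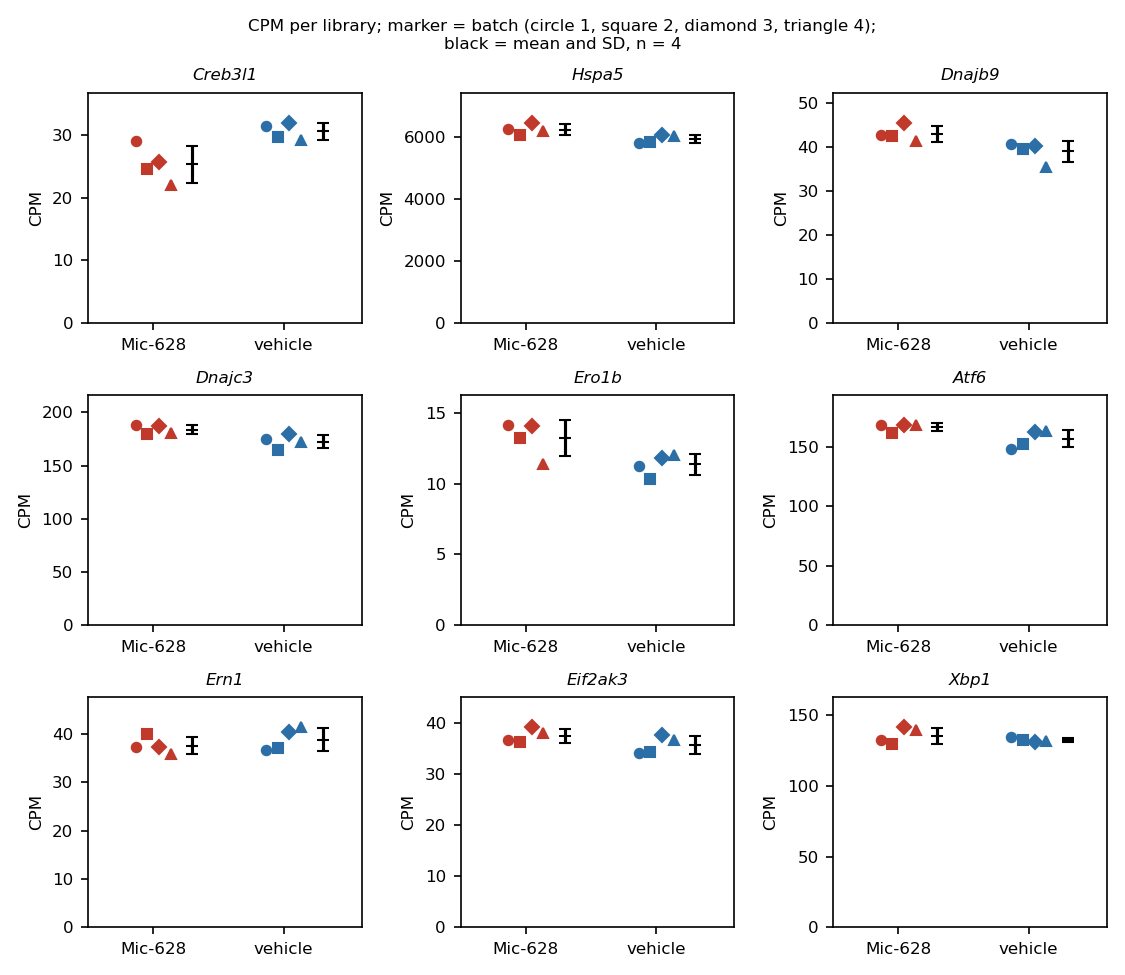
CPM of 9 members in each library, Mic-628 (red) left of vehicle (blue), with the marker shape giving the batch and the black bar the mean and SD (n = 4); all axes start at 0. Creb3l1 is lower in all 4 Mic-628 libraries, Hspa5, Dnajb9 and Dnajc3 are slightly higher in all 4, and Ero1b, Atf6, Ern1, Eif2ak3 and Xbp1 overlap between groups. Dnajb9, Dnajc3 and Ero1b were chosen after their values were seen, for their small unadjusted p.

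Of the 8 genes of the luminal Hsp70 and Hsp90 system, 0 were called, against 4.37% of all tested rows. At an unadjusted p under 0.05 in edgeR 5 of the 8 passed, against 17% of all tested rows. Their log2 fold changes ran from -0.019 to 0.14 with a median of 0.07. Hspa5 (mm39 chr2:34661982-34667559, plus strand) had 6267, 6056, 6460 and 6198 CPM in Mic-628 replicates 1 to 4, against 5805, 5851, 6055 and 6041 CPM in vehicle replicates 1 to 4. All Mic-628 libraries were higher, the nearest by about 1 CPM. The difference was 1.05-fold (95% interval 1.01 to 1.1), a log2 fold change of 0.07 (SE 0.031) that was not called (edgeR adjusted p = 0.220).

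Hsp90b1 encodes the ER Hsp90, GRP94. It had 4079, 4125, 4028 and 3984 CPM in Mic-628 replicates 1 to 4, against 4063, 3938, 3947 and 3908 CPM in vehicle replicates 1 to 4. The groups overlapped, and the log2 fold change was 0.03, with an SE of 0.030 and an adjusted p of 0.640 in edgeR. Its row is overlapped on the same strand by Gm54730 and Gm15344, at 105.5% and 25.3% of its FPKM, and by a row on the opposite strand at 42% of it, so its level is uncertain.

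Among the J-domain co-chaperones that feed substrates to BiP, Dnajb9 had the smallest unadjusted p of the group. It ranged from 41.3 to 45.5 CPM with Mic-628 and from 35.5 to 40.6 CPM with vehicle (log2 fold change 0.14, SE 0.047, edgeR adjusted p = 0.0929). Dnajc3 had 180.0 to 188.1 CPM with Mic-628 and 164.4 to 179.8 CPM with vehicle (0.09, SE 0.033, adjusted p = 0.136 in edgeR). Dnajb11 had 131.0 to 136.4 CPM with Mic-628 and 124.2 to 129.7 CPM with vehicle (0.08, SE 0.031, adjusted p = 0.167 in edgeR). These 3 and Hspa5, 4 of the 8 genes, did not overlap between groups, against 5.63% of all tested rows that were higher with Mic-628 without overlap, and none of the 4 was called. Manf, which encodes a secreted partner of BiP, had a log2 fold change of 0.07. The nucleotide exchange factor gene Hyou1 had 0.022 and Sdf2l1, whose product binds DNAJB11, had -0.019.

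In the lectin cycle, where calnexin and calreticulin hold glycoproteins and UGGT1 returns misfolded ones to them, 0 of 3 genes were called. Calr (mm39 chr8:85568479-85573563, minus strand) had 3771, 3753, 3836 and 3673 CPM in Mic-628 replicates 1 to 4, against 3833, 3653, 3686 and 3674 CPM in vehicle replicates 1 to 4. The groups overlapped and the log2 fold change was 0.018 (SE 0.030). Canx had 1565 to 1589 CPM with Mic-628 and 1527 to 1559 CPM with vehicle, and Uggt1 had 222.2 to 227.0 CPM with Mic-628 and 201.6 to 222.1 CPM with vehicle. Neither of these 2 of the 3 genes overlapped between groups, against the same 5.63% of all rows, and their log2 fold changes were small, 0.028 for Canx and 0.06 for Uggt1 (edgeR adjusted p 0.692 and 0.347).

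Of the 8 genes for disulfide formation and exchange, 0 were called. The isomerase genes Pdia3, Pdia4, Pdia5 and Pdia6 had log2 fold changes between -0.014 and 0.05. Dnajc10, an ER reductase gene, had 0.05 and Creld2, induced by ER stress, had -0.0027. The oxidases that recharge the isomerases stood at the ends of this group, with -0.07 for Ero1a and 0.21 for Ero1b. Ero1b had 14.1, 13.2, 14.1 and 11.4 CPM in Mic-628 replicates 1 to 4, against 11.3, 10.3, 11.8 and 12.0 CPM in vehicle replicates 1 to 4. Mic-628 replicate 4 lay within the vehicle libraries and the other 3 above them. The fold was 1.16 (95% interval 1.04 to 1.295, edgeR adjusted p = 0.125). Without Mic-628 replicate 4, or without batch 4, Ero1b was called higher (log2 fold change 0.28 and 0.31, edgeR adjusted p 0.0330 and 0.0247).

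Prolyl isomerases speed the turning of proline bonds, which is slow in collagen. Of 4 such genes 0 were called. Fkbp10, whose product FKBP65 serves procollagen, had 105.3, 104.7, 103.7 and 106.8 CPM in Mic-628 replicates 1 to 4, against 102.2, 106.6, 110.0 and 109.2 CPM in vehicle replicates 1 to 4. The Mic-628 values lay inside the vehicle range (log2 fold change -0.027, SE 0.033). The other 3 were Ppib (0.0037), Fkbp2 (0.05) and Fkbp14 (-0.06).

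Of 8 tested genes for ER-associated degradation, which pulls misfolded proteins back to the cytosol for the proteasome, 0 were called. Herpud1, a strongly stress-induced scaffold gene of the degradation complex, had 236.4, 215.8, 244.7 and 226.9 CPM in Mic-628 replicates 1 to 4, against 221.9, 217.6, 229.9 and 231.4 CPM in vehicle replicates 1 to 4. The Mic-628 libraries included both the highest and the lowest value (log2 fold change 0.04, SE 0.036). The ubiquitin ligase gene Syvn1 had -0.04 and its adaptor Sel1l had 0.023. The mannosidase-like genes Edem1 and Edem2 had 0.013 and -0.0054. The derlin genes Derl1 and Derl2 had 0.0099 and 0.08, and Selenos, which recruits the extracting ATPase, had -0.0045. Of the translocon genes, through which proteins enter the ER, Sec61a1 had -0.033 and Sec61b -0.025, and neither was called.

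Members with an ERSE or ERSE-II in the window, 11 of them tested, had a median log2 fold change of 0.03, and 9 were positive and 2 negative. The 21 tested members whose window held neither had a median of 0.0084, with 12 positive and 9 negative. Over all tested rows, 51.6% of log2 fold changes were negative. No member of either set was called. Creb3l1 had no window in the table.

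The members' median lay slightly above 0 in each batch. The median difference of the 39 members, Mic-628 minus vehicle on the log2 CPM scale, was 0.027 in batch 1, 0.036 in batch 2, 0.029 in batch 3 and 0.028 in batch 4. Over all tested rows it was -0.0090, -0.00060, -0.0019 and 0.0052 in the same batches. Single libraries departed from their own group by a similar size. The members' median log2 deviation from the group mean ran from -0.0225 in vehicle replicate 2 to 0.030 in Mic-628 replicate 3. The SD of the members' median log2 difference over Mic-628 libraries was 0.019. In the 4 batches, 24, 29, 29 and 22 of the 39 members were higher with Mic-628. The shares of all tested rows that were higher with Mic-628 were 48.3%, 49.8%, 49.4% and 51.0%. The groups did not overlap for 7 members that were higher with Mic-628 and 1 that was lower, against 5.63% of all rows higher and 5.07% lower. The members took 2.40% to 2.47% of all counts with Mic-628 and 2.34% to 2.38% with vehicle. This share weighs heavily on Hspa5, the member with the highest CPM, which averaged 6245 CPM with Mic-628 and 5938 CPM with vehicle. The members together had 24050 to 24690 CPM with Mic-628 and 23420 to 23860 CPM with vehicle. The summed FPKM of the members overlapped, at 8002 to 8263 with Mic-628 and 7816 to 8015 with vehicle. Mic-628 replicate 3 held the highest Mic-628 value for 20 of 39 members, and vehicle replicate 2 the lowest vehicle value for 15. In the other direction, Mic-628 replicate 2 held the lowest Mic-628 value for 15, and vehicle replicates 1 and 3 the highest vehicle value for 16 and 15. Without Mic-628 replicate 3 the members' median log2 fold change was 0.0082, without vehicle replicate 2 it was 0.013, and without batch 3 it was 0.0145. Over all 12 fits that left out a library or a batch, this median ran from 0.0082 to 0.0297, the highest without Mic-628 replicate 4.

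**Figure D4:**
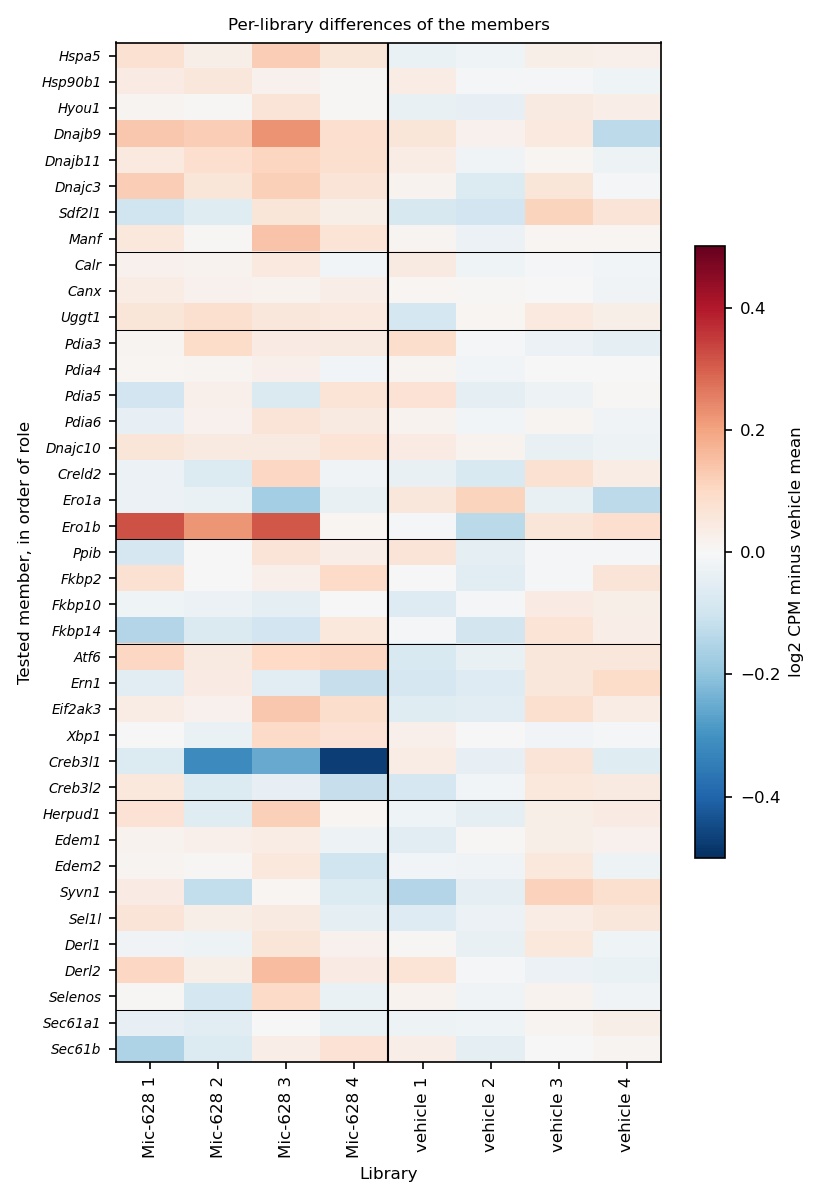
Difference of each library's log2 CPM from the vehicle mean for the 39 tested members, with Mic-628 libraries left of the black line and vehicle libraries right of it. The deepest blue is Creb3l1 in Mic-628 replicate 4 (-0.47), the deepest red is Ero1b in Mic-628 replicate 1 (0.32), and most other cells are near white.

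Other genes of the pathway were counted from 8 lists with 126 genes, of which 122 were tested. Among them 1 rose and 5 fell by edgeR's test, against 2.13% of all tested rows called higher and 2.25% called lower. Atf3, a stress-inducible factor that is also an immediate early gene, had 51.6 to 59.6 CPM with Mic-628 and 35.6 to 43.3 CPM with vehicle (log2 fold change 0.45, edgeR adjusted p = 3.86e-06). It was the only gene called of 16 in the list of PERK branch and ER stress outputs. That list's median was -0.00060, and its better known members Ddit3 (the gene of CHOP, -0.10), Atf4 (0.04), Trib3 (0.0075), Ppp1r15a (0.014), Chac1 (0.10) and Asns (0.09) were not called. Its lowest values, Cebpb (-0.17) and Bbc3 (-0.15), were not called either. The list moved both ways, with 8 genes positive and 8 negative. At an unadjusted p under 0.05 in edgeR, 6 of the 16 passed, against 17% of all tested rows.

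Of 17 tested collagen-directed enzymes and chaperones 3 fell, against 2.25% of all tested rows, with a list median of -0.04 against -0.0040 over all rows. They were the prolyl hydroxylase subunit gene P4ha2 (log2 fold change -0.32, edgeR adjusted p = 0.00237) and the lysyl hydroxylase genes Plod2 (-0.30, edgeR adjusted p = 0.0168) and Plod1 (-0.13, edgeR adjusted p = 0.0482). All 3 overlapped between groups. The lowest log2 fold change of the list, -0.39 for P4ha3, was not called (edgeR adjusted p = 0.0556). P4ha3 was the only gene of the list whose groups did not overlap. The collagen chaperone gene Serpinh1 had -0.011. P4hb, which encodes both protein disulfide isomerase and the partner of P4HA2, averaged 966.3 ± 20.5 CPM with Mic-628 and 1064 ± 47.0 CPM with vehicle (SD, n = 4 each). It was the only gene called of 15 tested in the list of other disulfide and redox enzymes (-0.14, edgeR adjusted p = 0.0154). Tusc3, a subunit gene of the oligosaccharyltransferase, fell among 14 genes of that list (-0.15, edgeR adjusted p = 0.0327). With the batch as a block, Plod1 and Tusc3 were not called (edgeR adjusted p 0.0875 and 0.0654). P4hb was not called without Mic-628 replicate 3, vehicle replicate 2, batch 2 or batch 3 (edgeR adjusted p 0.0746, 0.0789, 0.121 and 0.108). Plod2 was not called without the same libraries or batches (0.110, 0.103, 0.0512 and 0.151 in edgeR). Plod1 and Tusc3 lost their calls in 7 and 8 of the 12 fits that left out a library or a batch, with adjusted p up to 0.348 and 0.272 in edgeR. By DESeq2, P4hb was the only 1 of the 5 still called.

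In the remaining lists 0 genes were called, with median log2 fold changes of 0.015 for other Hsp70 co-factors, 0.018 for other degradation genes, 0.025 for other translocon, signal peptidase and signal recognition particle genes and -0.021 for other regulators. The last list includes Mbtps1 (0.015) and Mbtps2 (-0.024), the genes of the proteases that release ATF6 and OASIS.

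**Figure D5:**
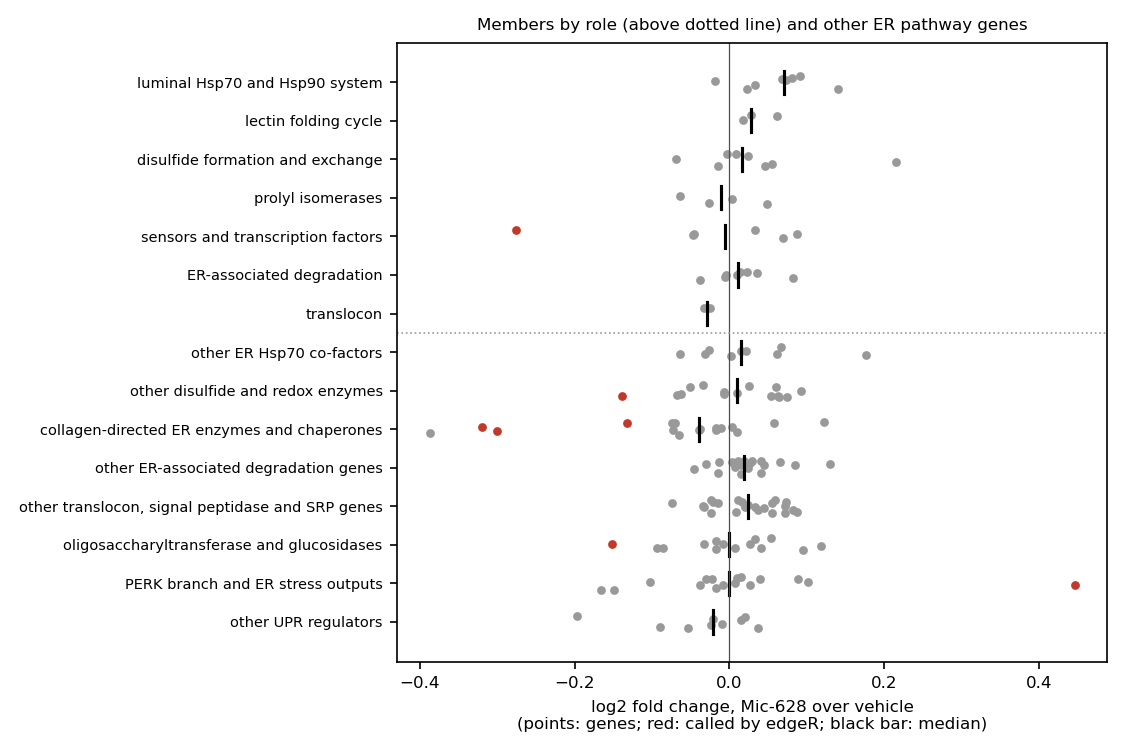
Log2 fold change, Mic-628 over vehicle, of every tested gene in the 7 roles of the members (above the dotted line) and in the 8 lists of other pathway genes; red points are called and black bars are medians. Medians lie between -0.04 and 0.07, and the red points are Creb3l1, P4hb, P4ha2, Plod1, Plod2 and Tusc3 on the left and Atf3 on the right.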

How the data were processed

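Poly(A) RNA of 8 NIH3T3 libraries was sequenced as paired ends from a stranded kit, per the labels' protocols. The submitters' processing notes name the build GRCm39 (mm39) and the tools HOMER 4.11, STAR 2.7.10a and bcl2fastq, without their roles. The authors deposited exon counts in steps of 0.5, treated as estimated counts and rounded, and FPKM values for the same rows. Whether counting used strand is not given in the sources used here.

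Counts were tested with edgeR 4.0.16 (R 4.3.3): filterByExpr with a minimum count of 10, TMM scaling, no block, and quasi-likelihood F tests whose p-values were adjusted by Benjamini-Hochberg over 17128 rows (threshold 0.05). CPM were scaled with TMM. The SE is the size of the log2 fold change divided by the square root of F. Precision follows depth, at 18.1 M to 23.2 M counts per library. Alternatives used DESeq2 1.42.0, limma 3.58.1, other filters and scalings, the batch block, and leaving out libraries or batches. Members of a batch share a number in the labels, which pairs them. Their deviations from group means correlated at -0.0925, 0.0744, -0.0213 and -0.0949 over 10292 genes. Pairs from different batches ran from -0.117 to 0.141, a range that holds all the same-batch values. Replicates differed by more than counting noise (chi-square per gene 1.74 to 5.80).

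Members, roles and lists were chosen with earlier results of these data known. All members are described; values per library are given for called members and for 10 named in the rule, Creb3l1 among them, and for Ero1b, which was added after its values were seen. Called genes of other lists are named, at most 4 a list; the uncalled genes named from them were added after their values were seen. The test was run on simulated data first. Figures used matplotlib 3.10.9. The rows of Canx, Ero1a, Sec61a1 and Syvn1 are each overlapped by an opposite-strand row with 44.6% to 97.2% of their FPKM, so their levels are uncertain.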

Additional observations from a re-analysis of the deposited data

Results flagged for a closer look

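In 5 of 78 groups of 4 libraries, 1 library stood apart from the other 3 of its group by Dixon's test on log2 CPM. Chance flags about 1 in 20 such groups. Mic-628 replicate 3 was high for Hyou1 (log2 CPM 9.61, the other 3 at 9.55 to 9.56) and low for Ero1a (8.39, the others at 8.52 to 8.53). Mic-628 replicate 2 was low for Atf6 (7.34, the others at 7.39 to 7.40). Vehicle replicate 2 was low for Manf (8.31, the others at 8.34 to 8.35), and vehicle replicate 3 was high for Edem2 (5.13, the others at 5.05 to 5.06).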

How the results depend on the processing

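Creb3l1 kept a negative log2 fold change in all 26 alternative settings, and 27 of 39 members kept their sign in all of them. The count of members called lower was 0 with the batch block in DESeq2 and in all 3 fits on log2 FPKM, and 0 to 1 when libraries or batches were left out. The count of members called higher was 0 to 1, the 1 being Ero1b. All rows called numbered 749, against 253 with the block in DESeq2, 277, 273 and 170 in the FPKM fits, 330 at an adjusted p under 0.01, and 292 to 802 when libraries or batches were left out (438 without Mic-628 replicate 3, 426 without vehicle replicate 2, 331 without batch 2 and 292 without batch 3). With the block in edgeR the count was 624 and no member's call changed. The members' median ran from 0.0082 to 0.030 under the leave-outs. Alternatives for other pathway genes were added after the data were seen. Of these genes 5 were called lower, against 1 in DESeq2, 3 with the block in edgeR, 2 with the block in DESeq2, 0 in each FPKM fit, 1 at 0.01 and 1 to 7 under the leave-outs, where 1 to 3 were called higher. The cause of these differences was not tested. Members near 0 changed sign: Creld2 (0.0033), Edem2 (0.000775) and Selenos (0.0016) with library size only, and Ppib (-0.000567) with upper-quartile scaling. Under the leave-outs, log2 fold changes ran from -0.039 to 0.023 for Creld2, -0.0075 to 0.028 for Derl1, -0.0059 to 0.036 for Edem1, -0.026 to 0.028 for Edem2, -0.097 to 0.010 for Ern1, -0.042 to 0.033 for Pdia5, -0.021 to 0.053 for Ppib, -0.050 to 0.020 for Sdf2l1, -0.055 to 0.024 for Sec61b, -0.011 to 0.066 for Sel1l, -0.039 to 0.023 for Selenos and -0.11 to 0.00023 for Syvn1. Depth limits Derl3, with at most 5 counts in a library.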
